A study of Mus musculus with 8 samples.

Results

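The genes described here are 10 components of the contractile machinery of fast skeletal muscle fibres: the fast myosin heavy chains Myh1, Myh2 and Myh4, the fast light chains Myl1 and Mylpf, the myosin light chain kinase Mylk2, the fast troponin subunits Tnnt3, Tnni2 and Tnnc2, and the alpha-actinin Actn3. They were chosen by name from 19938 measured genes, each through the transcript cluster with the highest mean, and all 10 had a single cluster. Levels came from triceps of 8 mice aged 3 months, 4 wild-type controls and 4 Nf1Prx1 mutants on standard chow, with RNA of each animal on its own Affymetrix Mouse Gene 1.0 ST array. Nf1Prx1 mice lose Nf1, the gene of the Ras inhibitor neurofibromin, wherever Cre under the Prx1 limb enhancer was active in limb bud mesenchyme. Which cells of the adult muscle had lost Nf1 was not measured. The series title asks what skeletal muscle needs from neurofibromin, and the comparison of the groups shows how the transcripts of the fast contractile apparatus stand in mutant triceps.

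In a fast fibre, myosin heavy chains form the thick filament and pull on actin, with an essential light chain (Myl1) and a regulatory light chain (Mylpf) wrapped around the neck of each head. Troponin C (Tnnc2) binds calcium, troponin I (Tnni2) holds the thin filament off until it does, and troponin T (Tnnt3) ties both to tropomyosin, while alpha-actinin-3 (Actn3) anchors actin at the Z-disc. Mylk2 is a calcium- and calmodulin-dependent kinase that phosphorylates the regulatory light chain, which raises the force of a fast fibre that is stimulated repeatedly. Slow fibres carry a separate gene for most of these parts. Mouse triceps is a predominantly fast muscle.

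All values are log2 levels, and differences are Nf1Prx1 minus control. Array medians over all genes lay between 7.57 and 7.67, and arrays correlated at 0.928 to 0.994. The 12 skeletal muscle fibre markers all lay above the median gene, while 6 of 7 heart markers lay below it. The mean level of Nf1 was 8.85 ± 0.12 over controls and 8.72 ± 0.074 over mutants (SD, n = 4; limma adjusted p = 0.599). Control 1 and Nf1Prx1 1 carried transcripts of other tissues. The mean of 5 brown fat markers was 9.73 and 9.77 in them and between 7.88 and 8.16 in the other arrays. Of that list Ucp1, the uncoupling protein of brown fat, was at 10.18 and 9.75 against 6.01 to 6.24. Elovl3 (5.83 and 5.94 against 5.77 to 6.26) and Ppara (8.50 and 9.38 against 8.32 to 9.23) were not high in both. The mean of 6 neutrophil markers was 9.50 and 9.71 against 6.50 to 7.22. Replicate numbers 1 to 4 come from the sample titles and the arrays of a number deviated together, so each test was also run with the number as a block, called the paired fit here. The unpaired limma fit called 0 of 19938 genes at an adjusted p of 0.05 (2709 had an unadjusted p below 0.05), and the paired fit called 1667. Rose and fell are used below only of genes that passed in the paired fit, whose p-values may be too small because the pairing was read from the same arrays.

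The gene group was slightly lower in Nf1Prx1 triceps, and 1 gene stood out from it by size, the kinase Mylk2. The mean was lower for 9 of the 10 genes, where 58.3% of all genes had a lower mean, and the median difference was -0.18 against -0.035 over all genes. Bright genes were lower too, with a median of -0.11 over the 55 genes whose mean exceeded 13, a level that 5 of the 10 passed. The paired fit called Mylk2 as lower and no other of the 10, where 5.00% of all genes were called lower and 3.36% higher (8.36% in either direction). The unpaired fit called 0 of the 10, as it called 0.00% of all genes, and 2 had an unadjusted p below 0.05, Mylk2 and Tnni2. These were also the 2 genes whose groups did not overlap, where 6.04% of all genes were lower without overlap and 2.58% higher (8.62% in either direction). In whole muscle, fewer fast fibres, less of these RNAs per fibre and a larger share of other tissue cannot be told apart. The 12 general fibre markers had a median difference of -0.31, and 9 adipocyte markers 1.15.

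**Figure D1:**
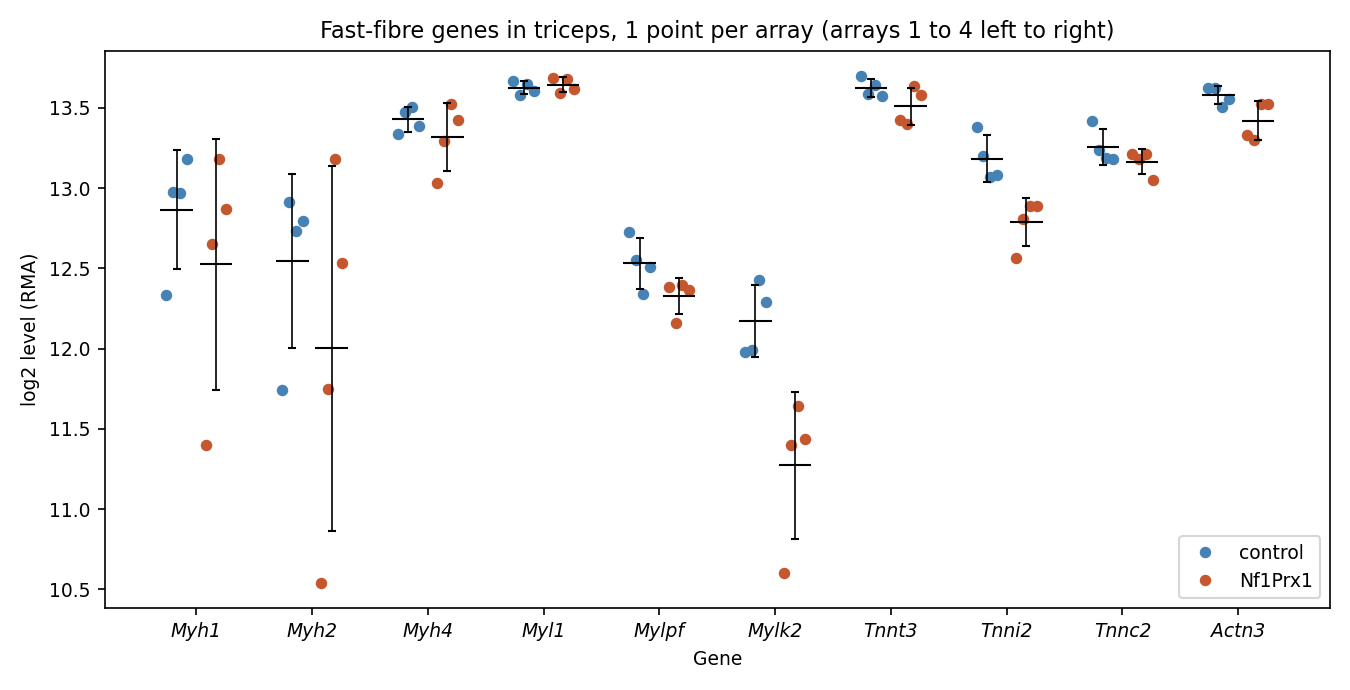
Log2 level (vertical axis) of each of the 10 genes in each of the 8 arrays, with control and Nf1Prx1 arrays as separate columns, 1 point per array and the group mean with its SD (n = 4) in black. Mylk2 and Tnni2 have no overlap between groups, and the wide spread of Myh1 and Myh2 comes with the low values of Nf1Prx1 1 (11.40 and 10.54).

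The fast myosin heavy chains varied together from array to array more than they differed between groups. Myh4 encodes the chain of IIb fibres, the fastest type, Myh1 that of IIx fibres and Myh2 that of IIa fibres, the most oxidative of the fast types. The genes are neighbours on chromosome 11, in the order Myh2, Myh1, the long non-coding RNA Myhas and Myh4. Of the 10 genes, 6 have an entry in the RefSeq promoter table (Myl1, Tnnc2, Mylpf, Myh2, Myh1 and Myh4). The promoters of the 3 heavy chains are shown because these genes moved together across the arrays and their windows share a stretch of sequence. Each line gives the 250 bases before the transcription start, 5′ to 3′ on the + strand of GRCm38.p6 (Myh2 chr11:67170777-67171026, Myh1 chr11:67199852-67200101, Myh4 chr11:67237562-67237811). Capitals mark the 20 bases that all 3 have in common, the only common run of 10 bases or more:
Myh2: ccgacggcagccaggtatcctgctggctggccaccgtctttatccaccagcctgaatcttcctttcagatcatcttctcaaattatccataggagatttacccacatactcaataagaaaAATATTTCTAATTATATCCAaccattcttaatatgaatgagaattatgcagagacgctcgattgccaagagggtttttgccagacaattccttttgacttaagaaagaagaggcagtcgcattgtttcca
Myh1: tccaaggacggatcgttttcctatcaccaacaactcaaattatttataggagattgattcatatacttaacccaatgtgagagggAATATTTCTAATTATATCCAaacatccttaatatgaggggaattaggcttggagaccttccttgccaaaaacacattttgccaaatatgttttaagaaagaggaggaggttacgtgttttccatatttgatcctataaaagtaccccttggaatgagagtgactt
Myh4: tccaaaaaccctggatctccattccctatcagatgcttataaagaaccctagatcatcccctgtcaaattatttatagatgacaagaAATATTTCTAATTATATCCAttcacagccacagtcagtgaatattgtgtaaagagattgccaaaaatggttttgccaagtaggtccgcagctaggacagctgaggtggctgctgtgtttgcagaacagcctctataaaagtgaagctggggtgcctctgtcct
The run begins 130 bases before the start of Myh2, 165 before that of Myh1 and 163 before that of Myh4. Searched on both strands, it occurred in 3 of the 32851 promoter windows of the table, or 0.00913%, and these were the windows of the same 3 genes.

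Known muscle motifs were searched on both strands in the same 250-base windows, and they did not set the heavy chains apart as a group. The MEF2 motif was present in Myh1 and Myh4 and in 2.92% of all windows, and the CArG box in Myh4 and in 1.47%. TATAAA, which can lie inside a MEF2 match, was present in Myl1, Myh1 and Myh4 and in 12.4% of all windows. The MCAT core CATTCC was present in the same 3 genes and in 12.6% of windows. The E-box CANNTG occurred in Myl1, Tnnc2, Mylpf and Myh4 and in 66.2% of windows, and TCAGGTT, the MEF3 site bound by Six4 and its relatives, in 0 of the 6 and in 3.49%. A match describes letters only and was not tested for binding.

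Myh2 stood at 11.74, 12.92, 12.74 and 12.80 in controls 1 to 4 and at 10.54, 11.75, 13.18 and 12.53 in Nf1Prx1 1 to 4. The highest and the lowest of the 8 values were both from Nf1Prx1 arrays, so the groups overlapped, and control 1 lay about as low as Nf1Prx1 2. The SD over 4 arrays was 0.54 in control and 1.14 in Nf1Prx1 triceps, and the difference was -0.55 (SE 0.52; limma adjusted p = 0.709, paired 0.250). The difference depended on single arrays, with -0.059 without Nf1Prx1 1 and -0.94 without Nf1Prx1 3. Myh1 had the same shape, with 12.33, 12.98, 12.97 and 13.18 in control and 11.40, 12.65, 13.18 and 12.87 in Nf1Prx1 triceps. Nf1Prx1 1 was again the lowest array and Nf1Prx1 3 at the top of the control range. Its difference was -0.34 (SE 0.36; limma adjusted p = 0.741, paired 0.257), and without Nf1Prx1 1 it was 0.034.

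Myh4 differed least of the 3. It was at 13.34, 13.48, 13.51 and 13.39 in control and at 13.04, 13.30, 13.52 and 13.43 in Nf1Prx1 triceps. Only Nf1Prx1 1 and Nf1Prx1 2 lay below every control. The means were 13.43 ± 0.078 and 13.32 ± 0.21 (SD, n = 4), a difference of -0.11 (SE 0.12; limma adjusted p = 0.748, paired 0.526). Array weights turned it to 0.014, and leaving out control 1, Nf1Prx1 1 and Nf1Prx1 2 turned it to 0.016 and that of Myh2 to 0.041.

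Across the 8 arrays the 3 heavy chains correlated with each other at 0.93 to 0.97, a description over arrays that share both group and tissue make-up. The genes most like Myh2 were Got1 (r = 0.99), the cytosolic aspartate aminotransferase, Mybpc1 (r = 0.99), the slow form of myosin-binding protein C, and Got2 (r = 0.99), the mitochondrial aminotransferase. Got1 was at 11.44 and 12.22 in Nf1Prx1 1 and 2 and at 13.06 and 12.86 in Nf1Prx1 3 and 4, against 12.21 in control 1 and 12.91 to 13.09 in controls 2 to 4. The genes most like Myh4 were Naif1 and Rtkn (r = 0.98 each) and Nxn (r = 0.98), with Nxn, the redox protein nucleoredoxin, at 9.23 in Nf1Prx1 1 and 10.30 in Nf1Prx1 3. The heavy chains are near-identical paralogues, and signal shared between their probes through cross-hybridisation was not tested.

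The light chains did not pass a test in either fit. Myl1, the essential light chain, was at 13.67, 13.58, 13.65 and 13.60 in control and 13.69, 13.59, 13.68 and 13.62 in Nf1Prx1 triceps. The groups lay on top of each other, with a difference of 0.019 (SE 0.076, 95% limits -0.15 and 0.19; limma adjusted p = 0.946, paired 0.911), the only positive one of the 10, and quantile normalization turned it to -0.022. Mylpf, the regulatory light chain and substrate of Mylk2, was at 12.73, 12.55, 12.34 and 12.51 in control and 12.39, 12.16, 12.40 and 12.37 in Nf1Prx1 triceps. Control 3 lay inside the Nf1Prx1 range and the other controls above it. The means were 12.53 ± 0.16 and 12.33 ± 0.11 (SD, n = 4), a difference of -0.20 (SE 0.11; limma adjusted p = 0.450, paired 0.258).

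Mylk2 fell. It was at 11.98, 11.99, 12.43 and 12.29 in controls 1 to 4 and at 10.60, 11.40, 11.65 and 11.44 in Nf1Prx1 1 to 4. Every Nf1Prx1 array lay below every control array, and Nf1Prx1 1 was the lowest by a wide margin. The means were 12.17 ± 0.22 and 11.27 ± 0.46 (SD, n = 4), 1.87-fold lower in Nf1Prx1 triceps, a difference of -0.90 (SE 0.22, 95% limits -1.40 and -0.41) that was lower in 4 of 4 pairs. Its adjusted p was 0.158 in the unpaired limma fit and 0.0145 in the paired fit. The difference ranked 54th from the bottom among 19938 genes. The paired call ended without the arrays numbered 3 (adjusted p = 0.0573) or 4 (0.0766). Without control 1 and Nf1Prx1 1 the unpaired difference was -0.74 (limma adjusted p = 0.0693), and without Nf1Prx1 2 as well it was -0.70 (adjusted p = 0.0249).

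**Figure D2:**
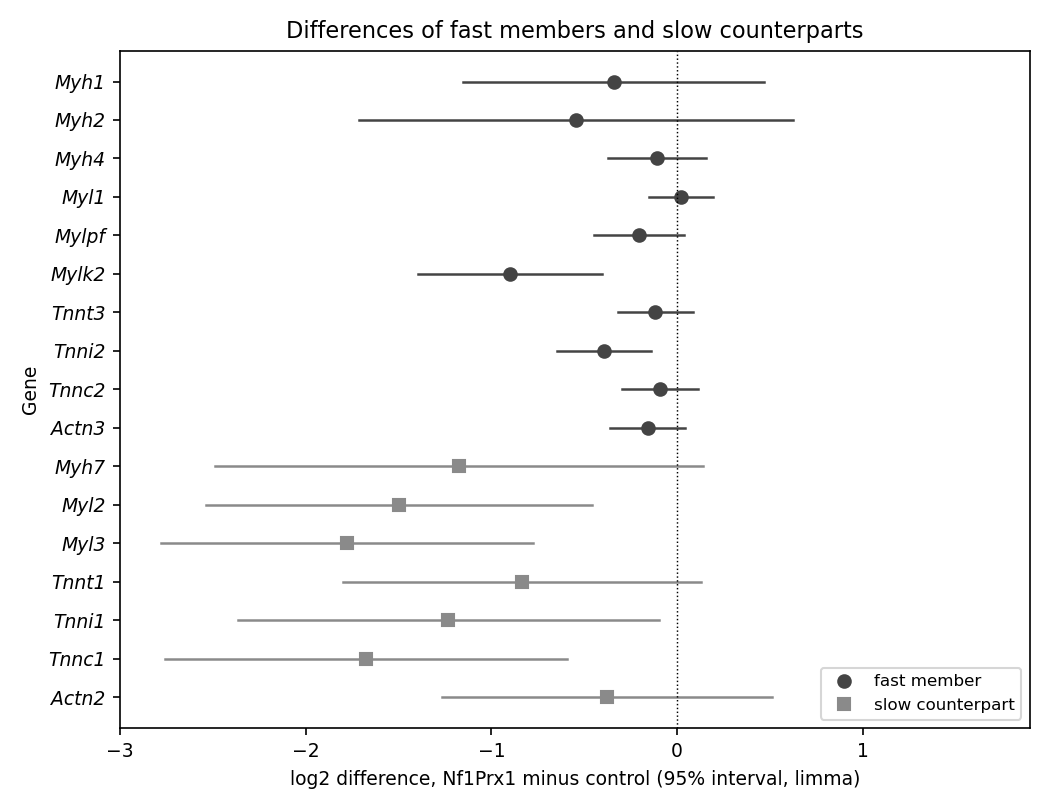
Log2 difference, Nf1Prx1 minus control (horizontal axis), of each of the 10 genes with its 95% limits from the unpaired limma fit, beside the same for 7 slow-fibre counterparts. The limits of Mylk2 (-1.40 to -0.41) and of Tnni2 (upper limit -0.14) lie below 0, those of the other 8 fast genes include 0, and the slow counterparts Myl3, Tnnc1 and Myl2 lie further left than any fast gene.

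The genes with the pattern most like Mylk2 over the 8 arrays were Lrrc14b (r = 0.99), Klhl38 (r = 0.99), a Kelch-like protein, and Popdc3 (r = 0.98), a Popeye-domain membrane protein of muscle. Popdc3 was at 9.66, 9.78, 10.04 and 9.86 in control and 8.56, 8.96, 9.32 and 9.16 in Nf1Prx1 triceps. As in Mylk2, all 4 Nf1Prx1 arrays lay below all controls and Nf1Prx1 1 was lowest. This likeness largely follows from choosing the gene by its r with Mylk2 over the same arrays. Among the 10 genes themselves Mylk2 correlated best with Tnni2 (r = 0.81 over 8 arrays).

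The list of genes that act on myosin light chains beside Mylk2 held 1 call, a share near that of all genes. Of 12 measured calmodulins, myosin phosphatase subunits, other kinases and non-sarcomeric light chains, the paired fit called 1 higher and 0 lower, where it called 8.36% of all genes, with a median difference of -0.089. The gene that rose was Myl12b, a regulatory light chain of non-muscle myosin, from 9.65 ± 0.37 to 10.13 ± 0.45 (SD, n = 4), 1.40-fold (limma paired adjusted p = 0.0256, unpaired 0.435). The groups of 3 others did not overlap, where 8.62% of all genes did not, chosen for mention after their values were seen. Calm2, a calmodulin gene, was at 11.07, 10.70, 10.74 and 10.47 in control and at 10.21, 10.12, 10.31 and 10.39 in Nf1Prx1 triceps, a difference of -0.49 (limma paired adjusted p = 0.0607). Calm3 differed by -0.48 (paired 0.0656) and Ppp1cb, the catalytic subunit of myosin phosphatase, by -0.37 (paired 0.0619), and none of the 3 passed. The kinases of smooth and heart muscle, Mylk and Mylk3, differed by 0.052 and 0.0077 (paired adjusted p = 0.824 and 0.967). Without a numbered pair the paired fit called 0 to 2 of the 12, with 0 when the arrays numbered 1, 3 or 4 were left out.

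Of the troponin subunits, troponin I was lower without overlap and the others were not. Tnni2 was at 13.38, 13.20, 13.07 and 13.08 in control and at 12.57, 12.81, 12.89 and 12.89 in Nf1Prx1 triceps. Every Nf1Prx1 array lay below every control. The means were 13.18 ± 0.15 and 12.79 ± 0.15 (SD, n = 4), 1.31-fold lower, a difference of -0.39 (SE 0.11, upper 95% limit -0.14; limma adjusted p = 0.187, paired 0.0913), lower in 4 of 4 pairs. It did not pass in either fit, passed with array weights (adjusted p = 0.0437), and was -0.25 without control 1 and Nf1Prx1 1.

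Tnnt3, troponin T, was at 13.70, 13.59, 13.64 and 13.57 in control and 13.42, 13.40, 13.63 and 13.58 in Nf1Prx1 triceps. Nf1Prx1 1 and 2 were below the controls and Nf1Prx1 3 and 4 within their range. The difference was -0.12 (SE 0.089; limma adjusted p = 0.625, paired 0.471), and without control 1, Nf1Prx1 1 and Nf1Prx1 2 it was 0.0054. Tnnc2, troponin C, was at 13.42, 13.24, 13.19 and 13.18 in control and 13.21, 13.18, 13.21 and 13.05 in Nf1Prx1 triceps, with a difference of -0.093 (SE 0.091; limma adjusted p = 0.717, paired 0.545). Nf1Prx1 4 was lowest and the other 3 Nf1Prx1 arrays lay within the control range.

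Actn3, the Z-disc anchor of fast fibres, was at 13.63, 13.62, 13.51 and 13.56 in control and at 13.33, 13.30, 13.53 and 13.52 in Nf1Prx1 triceps. As with Tnnt3, only Nf1Prx1 1 and 2 lay below the controls. Its means were 13.58 ± 0.056 and 13.42 ± 0.12 (SD, n = 4), a difference of -0.16 (SE 0.090; limma adjusted p = 0.489, paired 0.348). Mylpf, Tnnt3, Tnni2 and Actn3 correlated with each other at 0.68 to 0.90 over the 8 arrays. Between heavy chains and these 4 genes r ran from -0.030 to 0.69. Tnni2 and Tnnt3 lie near each other on chromosome 7, with Lsp1 and Prr33 between them.

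The mean of the 10 genes per array was 12.99, 13.11, 13.10 and 13.12 in control and 12.42, 12.75, 13.09 and 12.93 in Nf1Prx1 triceps. Nf1Prx1 1 and 2 were lowest and Nf1Prx1 3 reached the control level. General markers of muscle fibres followed the same order, with a mean of 12 markers at 12.72, 13.03, 13.01 and 13.03 in control and 12.09, 12.64, 13.06 and 12.90 in Nf1Prx1 triceps. All 12 were lower in the mean, where 58.3% of all genes were (median difference -0.31, 0 called by the paired fit). Adipocyte markers ran the other way, with a mean of 9 measured markers at 11.44, 9.64, 9.45 and 9.70 in control and 12.54, 10.65, 11.01 and 11.44 in Nf1Prx1 triceps. Of these 9, 7 rose, where the paired fit called 3.36% of all genes higher. The median difference of the 9 was 1.15. Macrophage markers had list means of 7.94 to 8.94 in control and 8.46 to 8.99 in Nf1Prx1 arrays. Fibroblast markers had list means of 9.75 to 10.66 and 10.16 to 10.83. Of the macrophage markers 3 of 8 rose and of the fibroblast markers 5 of 8, again beside 3.36% of all genes. The part of these cell types in the lower fast-fibre values was not tested. Without control 1, Nf1Prx1 1 and Nf1Prx1 2 the median difference of the 10 genes was -0.028.

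**Figure D3:**
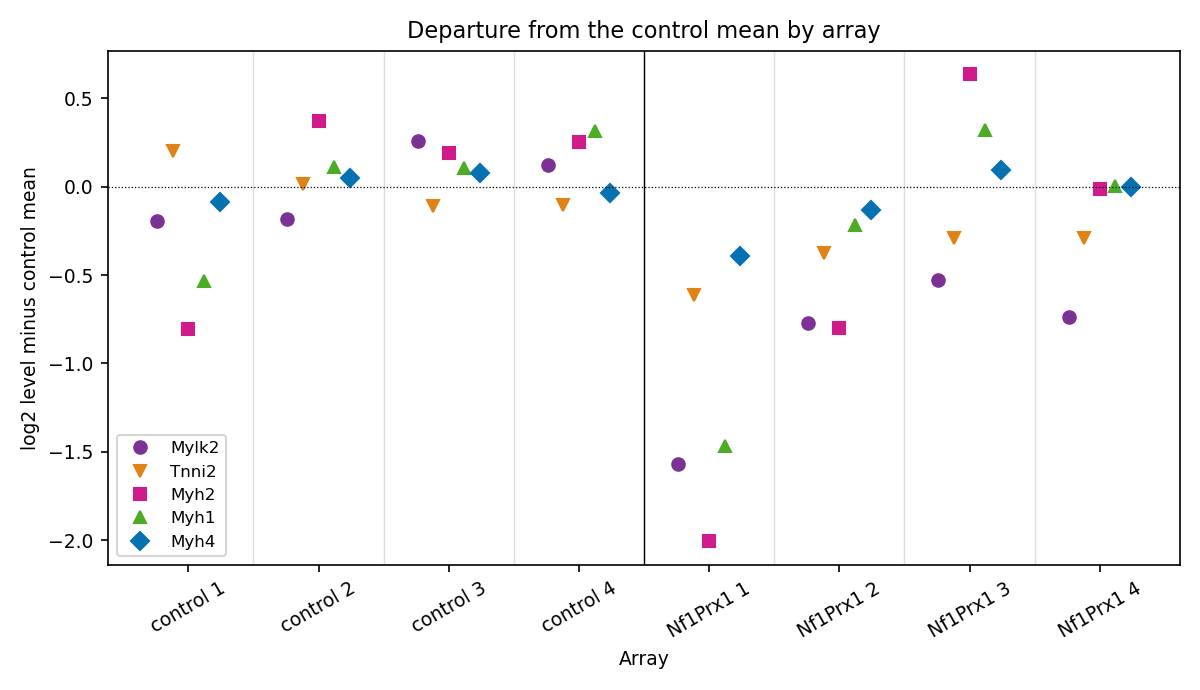
Level of Mylk2, Tnni2, Myh2, Myh1 and Myh4 minus the gene's control mean (vertical axis, log2) in each array (horizontal axis), 1 point per gene and array. Mylk2 lies below 0 in all 4 Nf1Prx1 arrays, while Myh2 and Myh1 are low in Nf1Prx1 1 (10.54 and 11.40 as levels) and above their control mean in Nf1Prx1 3 (13.18 each).

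Probe sets below the gene level showed whether a difference ran along the whole transcript. The authors' deposited table held 159 probe sets of the 10 genes among 234873, with 122 lower and 37 higher in the mutant mean. None of the 159 passed a p adjusted here over that deposited table, where 0.120% of all probe sets did. Of the 159, 29 were lower and 1 higher at an unadjusted p below 0.05, where 7.42% and 7.23% of the whole authors' deposited table were. The group ranges were apart for 0 of the 159 and, toward lower values, for 1.38% of the authors' deposited table. Rounded limits that touch were counted as overlap. That table implies 5 arrays per group where its notes state 4, so it is no second test on the same 8 arrays. Probe sets are counted in the order of their numbers, and no exon map was used.

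Mylk2 was lower along its entire set of probes. In the authors' deposited table, 11 of 11 Mylk2 probe sets were lower, with differences from -1.04 to -0.56 and a median of -0.91. Of these, 8 had an unadjusted p below 0.05, where 7.42% of all probe sets were lower at that p. The largest difference was that of the 3rd, with a mutant mean of 9.9 in the authors' deposited table, and the smallest that of the 4th, at 12.1 in control and 11.5 in mutant muscle. Tnni2 was lower in 6 of 6 probe sets of the authors' deposited table, from -0.53 for the 1st (11.9 to 11.3) to -0.11 for the 3rd (13.5 to 13.4), with a median of -0.33. Its ranges were apart in none of the 6.

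Tnnt3, whose transcript is spliced in many combinations, had probe sets in both directions, and none passed after adjustment. Its differences ran from -0.40 to 0.099, a spread similar to that of Mylk2 (-1.04 to -0.56). Of the 11 Tnnt3 probe sets in the authors' deposited table, 7 were lower and 4 higher, with a median of -0.083. The furthest below that median were the 9th, with means of 13.9 in control and 13.5 in mutant muscle (difference -0.40, adjusted p = 0.239 computed here from the authors' deposited table), the 1st, at 11.8 and 11.5 (-0.33), and the 4th, with a mutant mean of 13.8 (-0.22). The furthest above it in the authors' deposited table were the 3rd, at 13.4 and 13.5 (0.099), the 6th (0.015) and the 7th (0.0081), the last 2 at 13.8 in both groups. For the 9th the ranges met in the authors' deposited table, at 13.8 to 13.9 in control and up to 13.8 in mutant muscle. These limits are rounded there, so whether the ranges overlapped cannot be settled.

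Actn3 had 10 of 21 probe sets below an unadjusted p of 0.05 in the authors' deposited table, all lower, where 7.42% of all probe sets were. The median difference of the 21 was -0.29. Tnni2 had 4 of 6 and Tnnc2 and Tnnt3 3 of 7 and 3 of 11 in the authors' deposited table. Probe sets of the same gene read RNA of the same arrays, so such counts are not independent. The extremes of Actn3 in the authors' deposited table were the 1st, at 10.4 and 9.5 (-0.91), and the 19th, at 13.3 and 13.6 (0.30). Among the heavy chains, the authors' deposited table had medians of -0.11 for Myh1 (29 probe sets), -0.17 for Myh2 (31) and -0.041 for Myh4 (30). Their extremes in the authors' deposited table were -0.64 for the 21st and 0.53 for the 3rd of Myh1, -0.80 for the 8th and 0.11 for the 2nd of Myh2, and -0.69 for the 14th and 0.20 for the 24th of Myh4. Mylpf ran from -0.44 (the 3rd) to -0.015 (the 7th), Tnnc2 from -0.38 (the 6th) to 0.070 (the 3rd) and Myl1 from -0.62 (the 1st) to 0.10 (the 4th) in the authors' deposited table. The 1st probe set of Myl1 was dim, at 6.2 and 5.6 in the authors' deposited table, so its difference rests on little signal.

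**Figure D4:**
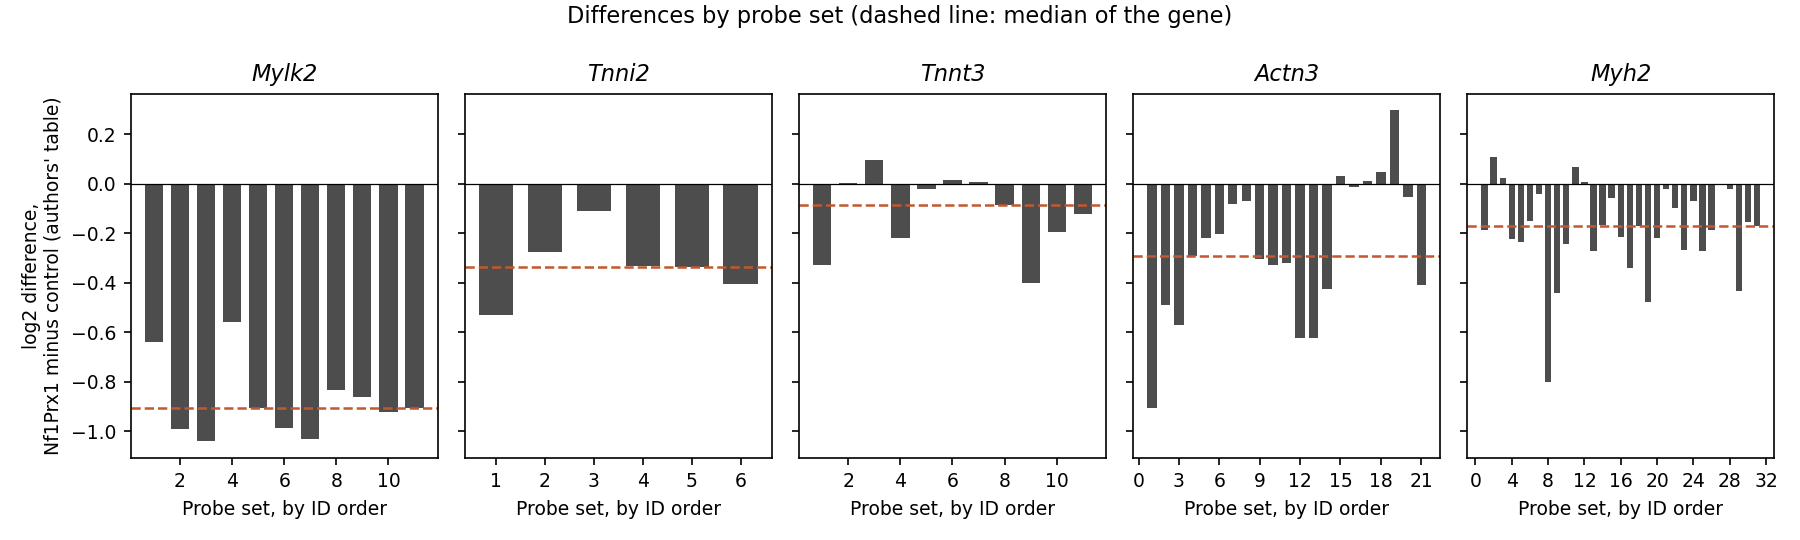
Log2 difference, mutant minus control mean (vertical axis), of each probe set in the authors' deposited table, in the order of probe set numbers (horizontal axis), for Mylk2, Tnni2, Tnnt3, Actn3 and Myh2, with the gene's median as a dashed line. All 11 Mylk2 probe sets lie at or below -0.56, while those of Tnnt3 lie between -0.40 and 0.099.

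Brighter probe sets of the 10 genes tended to have smaller differences, though not in every gene. Without Mylk2, whose 11 probe sets all had a mean below 12, the 34 probe sets of the other 9 genes below 12 had a median difference of -0.27 in the authors' deposited table, with 31 lower. From 12 to 13 there were 42, with a median of -0.16, from 13 to 14 there were 59, with -0.048, and from 14 upward 13, with -0.019. Within Actn3, 5 probe sets between 12 and 13 had a median of -0.49 in the authors' deposited table, 12 between 13 and 14 had -0.21, and 3 from 14 upward had -0.011. Tnni2 had -0.34 from 12 to 13 (2 probe sets) and -0.33 from 13 to 14 (3) in the authors' deposited table. From 13 upward Tnnt3 ran the other way, with 0.0056 from 13 to 14 (7) and -0.083 from 14 upward (3). The 1 Tnnt3 probe set below 12 was at -0.33. Over all probe sets of that deposited table the medians were -0.025 below 12, -0.085 from 12 to 13, -0.033 from 13 to 14 and 0.00059 from 14 upward. From 12 upward these medians also came closer to 0 with level. The 230628 probe sets below 12 did not follow that order. These limits were set after the values were seen, and whether the brightest probes still followed the amount of RNA was not tested. The highest gene level on any array was 14.39.

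**Figure D5:**
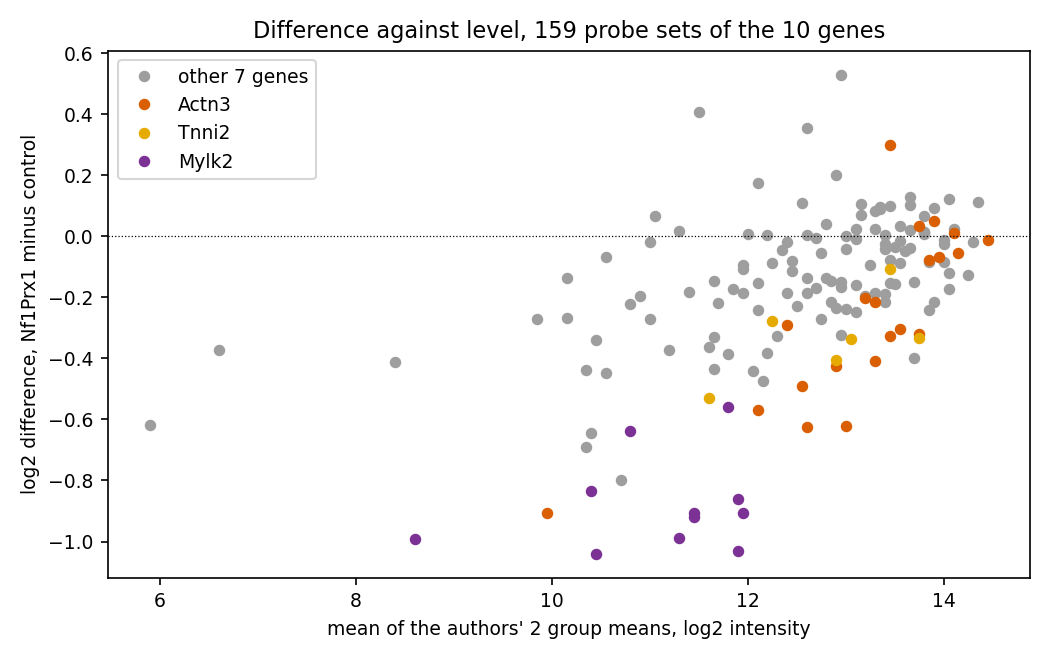
Mean log2 level (horizontal axis) against log2 difference, mutant minus control (vertical axis), of the 159 probe sets of the 10 genes in the authors' deposited table, 1 point per probe set, with Mylk2, Tnni2 and Actn3 in colour. Differences are largest below a level of 12 (median -0.27 without Mylk2) and close to 0 from 14 upward (median -0.019).

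The slow-fibre counterparts had a larger median difference than the fast genes and a wide spread among Nf1Prx1 arrays, a contrast that was tested only pair by pair. Of 15 slow-fibre genes the paired fit called 5 lower and 0 higher, where 5.00% of all genes were called lower, with a median of -0.68. Myl3, the slow essential light chain, fell from 9.95 ± 0.19 to 8.17 ± 1.06 (SD, n = 4; difference -1.78, limma paired adjusted p = 0.0235). Tnnc1, slow troponin C, fell to 8.33 ± 1.14 (-1.67, paired 0.0272). Myoz2, a slow Z-disc protein, fell from 10.40 ± 0.078 to 9.18 ± 0.93 (-1.22, paired 0.0447). Tnni1, slow troponin I, fell by 1.23, and Myl2, the slow regulatory light chain, from 9.57 ± 0.14 to 8.07 ± 1.11 (paired 0.0455 each). Myl2 shows the shape, at 9.45, 9.44, 9.66 and 9.71 in control and 7.96, 7.54, 9.66 and 7.13 in Nf1Prx1 triceps, where Nf1Prx1 3 lay at the control level. Myh7, Tnnt1 and Actn2, the last also present in fast fibres, differed by -1.17, -0.84 and -0.38 and did not pass (paired 0.0682, 0.0695 and 0.178). With pair 1, 2, 3 or 4 left out, the calls among the 15 were 0, 1, 7 or 0, and without control 1, Nf1Prx1 1 and Nf1Prx1 2 the unpaired fit called 0.

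For 8 fast and slow pairs the log2 ratio was taken within each array, where scaling cancels, and its change between groups was tested by an exact two-sided permutation of the 8 arrays (70 splits, smallest possible p 0.0286). The ratio was higher on average in Nf1Prx1 triceps in all 8 pairs, and none passed after adjustment over the 8. The 8 ratios are not independent, since Myh7 serves for both Myh4 and Myh2. The fast genes were brighter than their counterparts, with control means of 13.63 for Myl1 and 9.95 for Myl3. Whether signal follows RNA equally at both levels was not tested. The permutation test ignores the replicate numbers. Within pairs, the ratio was higher in Nf1Prx1 in 4 of 4 pairs for Myl1 over Myl3, Tnnc2 over Tnnc1, Mylpf over Myl2 and Myh2 over Myh7, but 4 pairs allow no exact two-sided sign-flip p below 0.125. Myl1 over Myl3 was at 3.63, 3.91, 3.61 and 3.57 in control and 5.75, 6.01, 3.95 and 6.19 in Nf1Prx1 triceps. All 4 Nf1Prx1 arrays lay above every control, Nf1Prx1 3 only just. The ratio was 3.47-fold higher (change 1.79, exact permutation p = 0.0286, adjusted 0.229). Tnnc2 over Tnnc1 changed by 1.58 on average (exact permutation p = 0.0857, adjusted 0.274), Mylpf over Myl2 by 1.29 (p = 0.114 exact, adjusted 0.274) and Myh4 over Myh7 by 1.07 (exact p = 0.143, adjusted 0.274). The remaining mean changes were 0.84 for Tnni2 over Tnni1, 0.72 for Tnnt3 over Tnnt1, 0.63 for Myh2 over Myh7 and 0.22 for Actn3 over Actn2, with exact permutation p from 0.171 to 0.543.

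Other fast-fibre genes, a list of 17 with metabolic and calcium-handling proteins, were all lower in the mean, where 58.3% of all genes were, with a median of -0.27. The paired fit called 1 lower, a share near the 5.00% of all genes. That gene was Ampd1, the muscle AMP deaminase, which fell from 12.53 ± 0.11 to 12.01 ± 0.25 (SD, n = 4), 1.43-fold (difference -0.52, limma paired adjusted p = 0.0386, unpaired 0.168). It was at 12.48, 12.54, 12.41 and 12.67 in control and 11.92, 11.70, 12.24 and 12.18 in Nf1Prx1 triceps, without overlap. Tpm1, a tropomyosin, was the other gene of the list without overlap, named after its values were seen, and did not pass (difference -0.27, paired 0.128). Mylk4, a kinase related to Mylk2, differed by -0.63 and did not pass either (paired 0.0769). With pair 1, 2, 3 or 4 left out, the calls among the 17 were 0, 1, 0 or 0. Of the 3 developmental myosin genes 0 passed, with Myl4, the embryonic light chain, at 0.11 (paired 0.459) and Myh8, the perinatal heavy chain, at -0.10 (paired 0.565).

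The last list held regulators of fast fibres and of fibre type. Of 24 measured, 9 fell and 0 rose in the paired fit, where 5.00% of all genes were called lower and 3.36% higher, with a median of -0.34. Six4, a homeodomain factor that drives fast-fibre genes, fell from 9.38 ± 0.39 to 8.43 ± 0.74 (SD, n = 4), 1.93-fold (limma paired adjusted p = 0.0168). Eya4, of the family of Eya cofactors of Six4 and its relatives, was at 9.86, 9.91, 10.21 and 10.04 in control and 8.91, 9.20, 9.79 and 9.47 in Nf1Prx1 triceps. Its groups did not overlap, and it fell by 0.66 (paired 0.0168). Vgll2, a cofactor of the TEAD factors in muscle, fell from 10.21 ± 0.38 to 9.32 ± 0.58 (paired 0.0174), and Tead1 itself from 11.32 ± 0.36 to 10.62 ± 0.49 (paired 0.0199). Without overlap, 3 of the 24 were lower and 1 higher, where 6.04% and 2.58% of all genes were. The higher one was Six5, named after its values were seen. It differed by 0.22 and did not pass (limma paired adjusted p = 0.158). The mean of the 24 was 9.45, 9.79, 10.02 and 9.91 in control and 9.03, 9.44, 9.72 and 9.60 in Nf1Prx1 triceps, lower in the Nf1Prx1 array of each pair while the groups overlapped at control 1. With pair 1, 2, 3 or 4 left out, the calls among the 24 were 4, 8, 2 or 0. The unpaired fit called 0 of them, and 1 without control 1, Nf1Prx1 1 and Nf1Prx1 2.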

How the data were processed

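Per the labels, each array holds biotin-labelled RNA of the triceps of 1 animal. Per the submitters' processing notes, the authors made the values with RMA and the Affymetrix Expression Console, and the deposited values are log2 levels per transcript cluster, not pooled. The series' text names the Affymetrix Exon Array Computational Tool. Versions, genome build and probe annotation of the authors are not given in the sources used here. Per the file headers, the deposited table of probe sets holds group means, SDs and ranges of normalized log2 intensity, an unadjusted p-value, and an F and a T score from an analysis of variance. The deposited p-values fit 8 residual degrees of freedom and the SDs imply 5 arrays per group. The notes state 4, and which arrays entered that table could not be settled.

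Of 35556 clusters, 21789 had 1 gene symbol, 1621 several and 12146 none. The cluster with the highest mean stood for each of 19938 genes, and no dim gene was left out. Testing used lmFit and eBayes of limma 3.58.1 under R 4.3.3, two-sided, with Benjamini-Hochberg adjustment over all genes and a threshold of 0.05, and the same over all probe sets for the authors' p-values. No per-sample column went unused (0), and the number of arrays limits the precision. The fits were tested on simulated data. Ratios were tested by exact permutation, written in python 3.11.15. The F distribution used to find the residual degrees of freedom of the deposited p-values came from scipy 1.17.1.

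No source says what a replicate number stands for. Over all genes, each array's departure from its group mean was correlated between groups. The correlation was 0.71 for arrays 1, 0.57 for arrays 2, 0.39 for arrays 3 and 0.30 for arrays 4, against -0.53 to 0.30 between unlike numbers. All 4 pairs exceeded 0.1, so the numbers were taken as pairs and the blocked fit is given beside the unpaired one. Some unlike numbers exceeded 0.1 too. The correlation was 0.303 for control 3 with Nf1Prx1 4, 0.289 for control 4 with Nf1Prx1 3 and 0.119 for control 4 with Nf1Prx1 2. The pairing thus stood out for arrays 1 and 2, and hardly for arrays 3 and 4.

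The 10 genes, the lists and the tests were chosen with earlier results of these data known. From each list the genes passing in either fit were named, up to 4 with the smallest paired p, or else the 2 with the smallest. For Mylk2, Myh2 and Myh4 the 3 genes with the highest Pearson r were named, for Tnnt3 the 3 highest and 3 lowest probe sets relative to the gene's median, and for the other genes 1 of each. Alternatives were other scalings, array weights, a filter on dim genes, cluster means, trended and robust moderation, and arrays left out. Promoter sequences are RefSeq's, of build GRCm38.p6.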

Additional observations from a re-analysis of the deposited data

Results flagged for a closer look

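In 10 of 86 groups of 4 arrays checked (35 genes and 8 ratios, each in 2 groups), 1 array lay far from the other 3, where chance gives about 5% of groups. Among the fast genes, Myh2 was at 11.74 in control 1 against 12.74 to 12.92 in the other controls, and Mylpf at 12.16 in Nf1Prx1 2, with the rest of its group from 12.37 to 12.40. Actn2 was at 11.83 in control 1, with the other controls at 12.83 and above, and Myl3 at 9.67 in control 2, with the others at 10.04. Tnnt1 was at 9.32 in Nf1Prx1 3, with the other Nf1Prx1 arrays from 7.32 to 7.48. The embryonic light chain Myl4 was high in both arrays that carry brown fat and neutrophil transcripts, at 10.12 in control 1 and 10.36 in Nf1Prx1 1, against 9.64 to 9.72 and 9.72 to 9.79 in the others of each group. Got2, one of the genes most like Myh2, was at 12.66 in control 1 against 13.11 to 13.18. The log2 ratio of Tnnt3 over Tnnt1 was 4.31 in Nf1Prx1 3, with the rest of its group from 5.94 to 6.19, and that of Actn3 over Actn2 was 1.79 in control 1 against 0.63 to 0.73 in the other controls. Of the 10, 5 were in control 1. No cause was tested.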

How the results depend on the processing

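Unpaired, 0 of 19938 genes passed, against 1667 with the replicate block, 2 after quantile normalization, 3070 with array weights, 96 without control 1 and Nf1Prx1 1, 1215 without Nf1Prx1 2 as well, and 0 to 3 with single arrays left out. With the replicate block and pair 1, 2, 3 or 4 left out the count was 719, 1202, 206 or 50, with the block and quantile normalization 1482 and with the block and median centring 1835, the last 2 settings chosen after seeing the data. Of the 10 fast-fibre genes 0 passed unpaired, 1 with the block, with the block and either scaling, and without control 1, Nf1Prx1 1 and Nf1Prx1 2, 2 with array weights (Mylk2 and Tnni2), and 0 to 1 with the block and a pair left out. Their median difference was -0.25 to -0.028 over 23 alternatives, and moved beyond the spread of the control arrays only in the last-named setting without 3 arrays. Mylk2 stayed negative in all 23, from -1.03 to -0.68 with adjusted p from 0.00692 to 0.398, and so did Tnni2 (-0.46 to -0.23, adjusted p from 0.0437 to 0.387), Mylpf, Tnnc2 and Actn3. The direction turned for Myl1 with quantile normalization, unpaired and paired (-0.022), for Myh4 with array weights (0.014), for Myh1 without Nf1Prx1 1 (0.034, with single arrays left out -0.56 to 0.034), and without control 1, Nf1Prx1 1 and Nf1Prx1 2 for Myh4 (0.016), Myh2 (0.041) and Tnnt3 (0.0054). The cause was not tested. For the fixed lists, added after seeing the data except for the block itself, the block called 1 other fast-fibre gene (0 to 1 with a pair left out), 5 slow counterparts (0 to 7), 1 phosphorylation partner (0 to 2), 9 regulators (4, 8, 2 or 0) and 0 developmental myosins (0 to 0), and without the 3 arrays 1 partner and 1 regulator passed. Mean changes of the fast over slow ratios stayed positive with single arrays left out except Actn3 over Actn2 (-0.11 to 0.50), and an exact sign-flip test within pairs, chosen after seeing the data, called 0 of the 8 ratios, at a smallest possible p of 0.125. The 10 genes had 0 called probe sets in the authors' deposited table at both thresholds and without dim probe sets. The deposited values give no background level, so no limit of detection was set.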
